A study of Mus musculus with 8 samples.

Results

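The 10 genes described here are markers of epithelial and mesenchymal cells: the cadherins Cdh1 and Cdh2, the adhesion molecule Epcam, the claudins Cldn3, Cldn4, and Cldn6, the keratins Krt8 and Krt18, the filament gene Vim, and the splicing factor Esrp1. They were picked by symbol, with earlier results of these data known. Counts of calls among them are therefore set beside the share over all genes as a description only. They are 10 of the 37263 gene rows in the count tables, and 10 of the 14931 genes that reached 1 CPM (the count scaled by the library's total) in at least 2 libraries. RNA-seq followed E14 mouse embryonic stem cells (ESCs), a line of strain 129/Ola grown without feeders, for 4, 16, 24, and 32 hr after transfer from serum with LIF to 2i. The 2i medium was serum-free and held LIF, the MEK inhibitor PD0325901, and the GSK3 inhibitor CHIR99021, so all 8 libraries carried both inhibitors and LIF. The series compared 2i alone (4 libraries) with 2i plus 17 µM vitamin C (vitC; 4 libraries), with 1 library at each of the 4 time points. A library of cells still in serum was not analysed here, so the earliest level is that at 4 hr of 2i. All samples came from 1 cell line, and nothing in the sources says whether the time points came from separate cultures.

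Total counts ran from 12940716 to 18434932 in 2i and from 4753528 to 13157570 in vitC, and each of the 10 genes had at least 70 counts in every library. Levels are CPM scaled by the trimmed mean of M-values (TMM), and comparisons between genes use RPKM, the same CPM per kilobase of exon. With 1 library per combination, changes with time were tested over both treatments together by edgeR's quasi-likelihood test. Its error is how far the treatments depart from a shared time course (3 residual degrees of freedom) and not the spread between replicates. The test also draws each gene's error toward a trend over all genes. Standard errors (SE) and p-values therefore do not rest on that gene's own residuals alone. Intervals on levels of single libraries are exact Poisson intervals at 95%. Those on ratios between single libraries are normal approximations on the log scale, and both kinds cover counting error only. In the file names, the 4 and 24 hr libraries carry lane number 8 and the 16 and 32 hr libraries lane number 7. The comparisons of 24 with 4 hr and of 32 with 16 hr are therefore within a lane number and share no library. The labels do not give a lane, so an equal number need not mean the same run. In the comparison of 16 with 4 hr, lane number and time cannot be told apart. The share of counts on the Lars2 features (Lars2, Gm23935, and 1 further row with them) was from 0.0113% to 0.0277% at 4 hr, and from 5.92% to 6.37% at 24 hr. At 16 and 32 hr it was 0.206% and 0.564% in 2i, but 7.11% and 4.21% in vitC. In bulk RNA, fewer cells of a type and less RNA per cell cannot be told apart.

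Mouse ESCs are epithelial: they grow as compact colonies held together by E-cadherin, the product of Cdh1, and express the simple-epithelium keratins Krt8 and Krt18. Many also express Vim, the type III filament protein that is used as a mesenchymal marker elsewhere. When epiblast cells pass through an epithelial-to-mesenchymal transition, Cdh1 and Epcam are turned off and Cdh2 (N-cadherin) is turned on, and repressors of the Snail and Zeb families bind E-boxes in epithelial promoters. Claudins seal tight junctions, and Esrp1 directs epithelial patterns of alternative splicing.

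Promoter windows from RefSeq on GRCm38.p6, holding 250 bases before and 50 bases from the transcript start, were found for 7 of the 10 genes. Entries for Cdh1, Cdh2, and Esrp1 were not among them. The windows were searched on both strands, after the expression values had been seen, for the Snail/Zeb-type E-box CAGGTG, an AP-1 motif TGANTCA, an ETS motif CCGGAAG, and the GC box GGGCGG. The E-box letters occurred in the windows of 6 of the 7 genes (9 matches in all), against 20.21% of all 32851 promoter windows. Vim, the filament gene used as a mesenchymal marker, was the window without a match. GC box letters occurred in 4 of the 7 windows (35.66% of all), the AP-1 letters in 1 (Cldn4; 7.808% of all), and the ETS letters in none of the 7 (8.858% of all). A match is a description of letters and not a bound site. The windows of the keratin pair, Epcam, and Cldn6 are printed because these epithelial genes fell after the switch, with Vim beside them as a filament gene that fell but whose window lacks the letters. They run 5′ to 3′ on the strand of the gene, with the E-box letters, read as CAGGTG or as CACCTG on the other strand, in capitals.
Krt8, chr15:102004293-102004592, minus strand: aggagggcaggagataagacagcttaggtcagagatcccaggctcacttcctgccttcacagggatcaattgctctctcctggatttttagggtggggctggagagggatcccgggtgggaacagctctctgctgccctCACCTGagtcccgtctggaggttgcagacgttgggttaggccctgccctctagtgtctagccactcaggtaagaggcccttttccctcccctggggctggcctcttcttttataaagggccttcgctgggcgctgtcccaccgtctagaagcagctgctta
Krt18, chr15:102027966-102028265, plus strand: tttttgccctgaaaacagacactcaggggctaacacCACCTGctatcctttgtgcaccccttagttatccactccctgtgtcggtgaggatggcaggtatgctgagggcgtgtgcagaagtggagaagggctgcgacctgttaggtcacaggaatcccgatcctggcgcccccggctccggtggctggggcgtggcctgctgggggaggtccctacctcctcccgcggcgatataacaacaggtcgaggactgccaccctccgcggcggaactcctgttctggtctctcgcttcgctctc
Epcam, chr17:87635729-87636028, plus strand: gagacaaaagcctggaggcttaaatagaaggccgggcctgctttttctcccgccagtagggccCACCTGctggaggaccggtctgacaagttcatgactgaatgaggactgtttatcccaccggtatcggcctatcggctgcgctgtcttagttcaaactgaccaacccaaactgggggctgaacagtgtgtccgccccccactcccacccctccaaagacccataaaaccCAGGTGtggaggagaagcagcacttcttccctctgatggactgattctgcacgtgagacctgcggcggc
Cldn6, chr17:23679115-23679414, plus strand: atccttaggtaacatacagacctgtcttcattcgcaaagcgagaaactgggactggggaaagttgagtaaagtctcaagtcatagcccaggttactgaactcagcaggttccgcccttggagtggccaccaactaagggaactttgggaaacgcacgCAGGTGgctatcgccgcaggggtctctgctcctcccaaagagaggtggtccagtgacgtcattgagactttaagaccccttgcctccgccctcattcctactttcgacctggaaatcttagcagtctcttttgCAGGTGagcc
Vim, chr2:13574061-13574360, plus strand: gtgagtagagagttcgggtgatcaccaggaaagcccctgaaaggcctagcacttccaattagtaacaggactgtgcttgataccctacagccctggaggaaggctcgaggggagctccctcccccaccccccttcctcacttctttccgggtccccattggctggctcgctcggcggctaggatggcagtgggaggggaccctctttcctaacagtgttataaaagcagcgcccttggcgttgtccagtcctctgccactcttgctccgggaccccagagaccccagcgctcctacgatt
Counted from the transcript start, the E-box letters begin at -111 in Krt8, at -214 in Krt18, at -187 and -19 in Epcam, and at -93 and 41 in Cldn6. The windows of Cldn3 (at 32) and Cldn4 (at -14 and 12), not printed, hold the letters too. Both genes missed the threshold at 24 against 4 hr (edgeR), and Cldn3 was higher at 24 hr in both treatments. A link between the letters and the changes was not tested. Krt8 and Krt18, whose products pair into 1 filament, lie next to each other on chromosome 15 and are read in opposite directions.

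After transfer to 2i, RNA of Krt8, Krt18, Epcam, Cldn6, and Esrp1 fell, while neither Cdh1 nor Cdh2 passed the test in any of the 5 comparisons. Between 4 and 24 hr, 6 of the 10 genes fell and none rose (edgeR quasi-likelihood test, adjusted p below 0.05), with Cldn6, Esrp1, Krt18, and Krt8 falling the furthest. Vim, the mesenchymal filament gene, was among the genes that fell. Over all genes tested, 20.5% (3061 of 14931) were called in either direction and 8.98% (1341) were called lower. The median log2 change of the 10 genes was -0.57, beside 0.01 over all genes. In both treatments taken singly, 7 of the 10 genes were lower at 24 than at 4 hr beyond counting error, 2 (Cdh2 and Cldn3) were higher, and Cdh1 was neither. The share of all genes beyond counting error was not computed, so this count has no background. Counting intervals are narrow for abundant genes and leave out spread between cultures. None of the 10 genes passed the test with the Lars2 share as a covariate, a fit in which no gene of the 14931 was called. That share was far higher at 24 than at 4 hr in both treatments, so the fit can barely tell it from time. Standard errors grew there (Cldn6 from 0.21 to 0.43), and the loss of calls does not decide whether the genes changed. When the vitC library of 24 hr was left out, 3 of the 10 genes passed (Cldn6, Krt18, and Esrp1), and when the vitC library of 4 hr was left out, 4 did (these and Krt8).

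**Figure D1:**
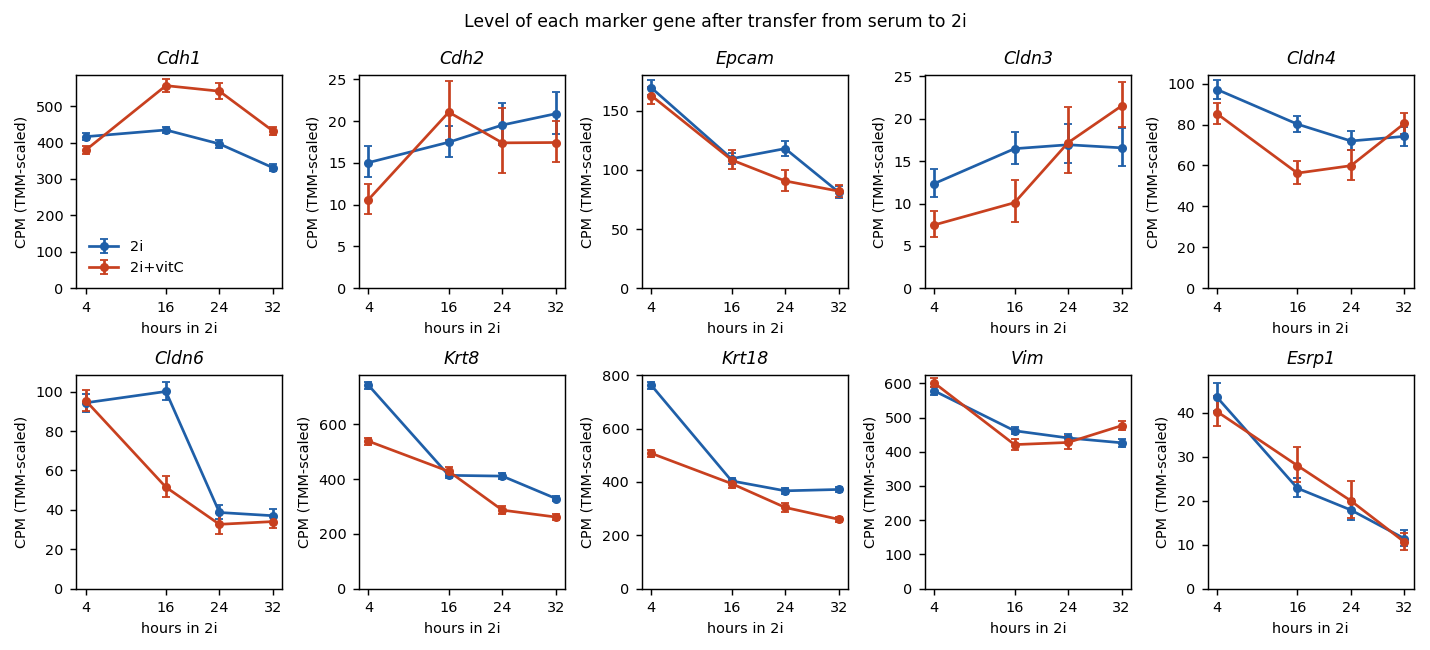
TMM-scaled CPM of each of the 10 genes (vertical axis, from 0) against hours in 2i (horizontal axis), with blue for 2i and red for vitC, 1 library per point, and bars for the exact 95% Poisson interval. Krt8, Krt18, Epcam, Cldn6, and Esrp1 are lower at 32 than at 4 hr in both treatments, Esrp1 at each step. Cdh1 lies between 331 and 556 CPM, and is lower at 32 than at 4 hr in 2i but higher with vitC.

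The keratins Krt8 and Krt18 form the filament pair of simple epithelia. In 2i, Krt8 was at 742, 413, 411, and 329 CPM at 4, 16, 24, and 32 hr. With vitC it was at 538, 428, 286, and 261 CPM. In 2i, Krt18 was at 762, 404, 366, and 371 CPM, and with vitC at 507, 393, 304, and 259.6 CPM. Both libraries of 4 hr stood above all 6 later libraries for each gene, and the 2i library of 4 hr was the highest of all 8. From 4 to 24 hr, Krt18 fell by 0.90 on the log2 scale (SE 0.16, edgeR adjusted p = 0.00217), or 1.87-fold. Krt8 fell by 0.88 (SE 0.16, edgeR adjusted p = 0.00258), or 1.84-fold. Per length, there was 1.22 to 1.54 times as much Krt18 as Krt8 RNA in the 8 libraries. Keratin 8 and 18 have many processed copies in the genome, and reads of 50 bases could be shared with them, so these levels are uncertain to that extent.

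The claudins, which set the seal of the tight junction, did not move as a group. Cldn6, a claudin of early embryonic epithelium, was at 94.4 and 100.1 CPM at 4 and 16 hr in 2i and then at 38.7 and 37.0 CPM at 24 and 32 hr. With vitC it was at 95.6, 51.5, 32.6, and 34.0 CPM, already low at 16 hr. All 4 libraries of 24 and 32 hr stood below all 4 of 4 and 16 hr. From 4 to 24 hr Cldn6 fell by 1.43 on the log2 scale (SE 0.21, edgeR adjusted p = 0.000949), or 2.70-fold, the furthest of the 10 genes in this fit. With the Lars2 share as a covariate, where none passed, its value was -0.34, beside -1.57 for Krt8, -1.51 for Esrp1, and -1.40 for Krt18.

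Cldn4 was at 97.1, 80.2, 72.0, and 74.2 CPM in 2i and at 85.2, 56.3, 59.9, and 80.6 CPM with vitC. Its log2 difference between 24 and 4 hr, -0.47 (SE 0.16), missed the threshold (edgeR adjusted p = 0.0565). Cldn3, at 70 to 313 counts a library, was the least abundant claudin. It was at 12.4, 16.5, 16.9, and 16.6 CPM in 2i, with a 95% interval of 10.7 to 14.1 CPM at 4 hr. With vitC it was at 7.47, 10.1, 17.2, and 21.5 CPM, with an interval of 6.08 to 9.09 CPM at 4 hr. Both libraries of 4 hr were below both of 24 hr, opposite to Cldn6. The log2 difference of Cldn3, 0.79 (SE 0.29), missed the threshold (edgeR adjusted p = 0.0700). Without the CPM filter both claudins passed, Cldn4 lower (edgeR adjusted p = 0.0323) and Cldn3 higher (edgeR adjusted p = 0.0175). Per length, Cldn6 exceeded Cldn3 5.59-fold at 4 hr and 1.63-fold at 32 hr in 2i, and 9.36-fold and 1.16-fold with vitC.

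The cadherins hold cells together through calcium-dependent contacts. Cdh1 was at 416, 434, 396, and 331 CPM in 2i. With vitC it was at 379, 556, 541, and 432 CPM, with the 4 hr library the lowest there and the 32 hr library the lowest in 2i. Over both treatments Cdh1 differed by 0.21 on the log2 scale between 24 and 4 hr (SE 0.16, edgeR adjusted p = 0.376), which missed the threshold. Cdh2, with 81 to 332 counts a library, was at 15.0, 17.5, 19.5, and 20.9 CPM in 2i and at 10.6, 21.1, 17.4, and 17.4 CPM with vitC. The 4 hr library was the lowest in both treatments. Its log2 difference between 24 and 4 hr, 0.53 (SE 0.23), missed the threshold as well (edgeR adjusted p = 0.125). Per length, Cdh1 exceeded Cdh2 in every library, 48.8-fold at 4 hr and 27.9-fold at 32 hr in 2i, and 63.0-fold and 43.7-fold with vitC.

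Epcam, the epithelial cell adhesion molecule, was at 169, 109, 118, and 81.1 CPM in 2i and at 163, 108, 90.6, and 82.0 CPM with vitC. Both libraries of 4 hr were above all 6 later ones. It fell by 0.67 on the log2 scale from 4 to 24 hr (SE 0.14, edgeR adjusted p = 0.00743), or 1.59-fold. This call was lost without the vitC library of 4 hr (adjusted p = 0.0623) or of 24 hr (adjusted p = 0.152). The level of Epcam relative to Cdh1, per length, went from 0.848 at 4 hr to 0.511 at 32 hr in 2i and from 0.894 to 0.396 with vitC.

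Vim, the gene of the intermediate filament vimentin, was at 578, 461, 440.3, and 426 CPM in 2i. With vitC it was at 601, 421, 427, and 476 CPM. The 4 hr library was the highest in each treatment, and the libraries of 16, 24, and 32 hr lay close together. Vim fell by 0.44 on the log2 scale from 4 to 24 hr (SE 0.14, edgeR adjusted p = 0.0371), or 1.36-fold, the smallest change among the 6 called genes. The call was lost when any 1 of the libraries of 4, 24, or 32 hr was left out, with adjusted p from 0.0531 to 0.241, and without the treatment term (adjusted p = 0.0542).

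Esrp1, which promotes the epithelial splice forms of its target RNAs, had the widest range of the 10 genes, 4.11-fold between its highest and lowest library. It was at 43.5, 22.8, 17.9, and 11.4 CPM in 2i, with intervals of 40.5 to 46.8 CPM at 4 hr and 9.64 to 13.3 CPM at 32 hr. With vitC it was at 40.3, 27.99, 19.97, and 10.6 CPM. Esrp1 was thus lower at each later time point than at the one before in both treatments. It fell by 1.16 on the log2 scale from 4 to 24 hr (SE 0.20, edgeR adjusted p = 0.00195), or 2.23-fold. Gene counts do not show which isoforms were present. Between 4 and 32 hr the single-library log2 ratio was -1.93 in 2i (95% counting interval -2.18 to -1.68) and -1.92 with vitC (-2.20 to -1.64).

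**Figure D2:**
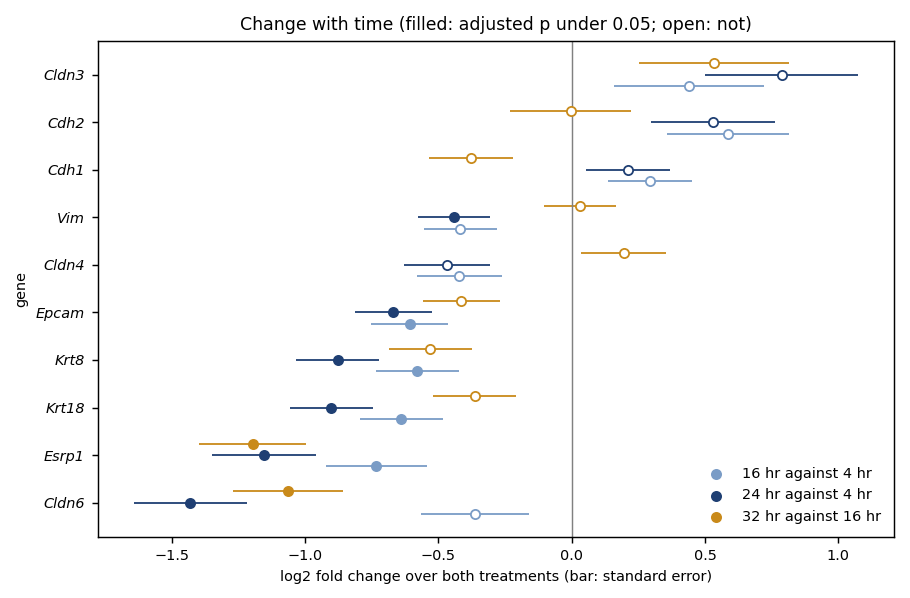
Log2 fold change over both treatments (horizontal axis) for each gene (vertical axis) at 16 against 4 hr, 24 against 4 hr, and 32 against 16 hr; bars are the standard error and filled points passed an adjusted p of 0.05. Every filled point lies left of 0, and Esrp1 is filled in all 3 comparisons.

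Change from 16 to 32 hr, an interval that begins within the first day, was tested in libraries of the other lane number. Here 2 of the 10 genes fell and none rose, when 0.583% of all genes tested (87) were called and 0.248% (37) were called lower. Esrp1 fell by 1.20 on the log2 scale (SE 0.20, edgeR adjusted p = 0.0243), or 2.29-fold. Cldn6 fell by 1.06 (SE 0.21, edgeR adjusted p = 0.0426), or 2.09-fold. From 24 to 32 hr alone, the single-library log2 ratio of Cldn6 was -0.06 in 2i and 0.06 with vitC, both within counting error. That of Esrp1 was -0.65 in 2i and -0.92 with vitC, both beyond it. No member passed when the 2i library of 16 hr, the 2i library of 32 hr, or the vitC library of 32 hr was left out, or without the treatment term. The Cldn6 call was also lost without either library of 24 hr, with thinning, and at a filter of 5 CPM (adjusted p from 0.0525 to 0.0891), and its value went to -0.59 without the 2i library of 16 hr. The Esrp1 call was also lost without the vitC library of 16 hr (adjusted p = 0.0645). Krt8 (log2 difference -0.53, edgeR adjusted p = 0.149), Epcam (-0.42, adjusted p = 0.217), and Krt18 (-0.36, adjusted p = 0.315) missed the threshold, as did Cdh1 (-0.38, adjusted p = 0.306). The median log2 difference of the 10 genes was -0.37, beside 0.00 over all genes. Lower at 32 than at 16 hr beyond counting error in both treatments were 6 of the 10, a count without a share over all genes beside it. In this comparison the Lars2 share as a covariate left the count at 2.

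In the earliest interval, 16 against 4 hr, 4 of the 10 genes fell and none rose, while 16.4% of all genes (2448) were called and 7.24% (1081) were called lower. These were Esrp1 (-0.73, SE 0.19, edgeR adjusted p = 0.0219), Krt18 (-0.64, SE 0.15, adjusted p = 0.0165), Epcam (-0.61, SE 0.14, adjusted p = 0.0148), and Krt8 (-0.58, SE 0.16, adjusted p = 0.0260). This comparison shares its 4 hr libraries with that of 24 against 4 hr. Vim (-0.42) missed the threshold (edgeR adjusted p = 0.0531), though DESeq2 called it lower (adjusted p = 0.0283), and the log2 difference of Cldn6 was -0.36 (adjusted p = 0.239), with the 2i library of 16 hr still at its 4 hr level. With the Lars2 share as a covariate, itself higher at 16 than at 4 hr in both treatments, no member passed. Without the 2i library of 4 hr (Epcam) or the vitC library of 4 hr (Krt18), 1 of the 10 passed. Without the 2i library of 16 hr all 4 calls were lost (adjusted p from 0.0935 to 0.239), Krt8 went to -0.33 and Krt18 to -0.42, and Cldn6 passed instead (-0.82, edgeR adjusted p = 0.0235). The share of higher genes among all those called moved when GC content and exon length were corrected for, from 56.19% to 44.35% at 24 against 4 hr, from 57.47% to 46.67% at 32 against 16 hr, and from 55.84% to 43.43% at 16 against 4 hr. No call of a member in these comparisons was lost with that correction.

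Addition of vitC asks whether a cofactor of the Tet dioxygenases, which speeds DNA demethylation, changes these markers in 2i. None of the 10 genes passed the test of vitC against 2i over the 4 time points (edgeR), and 0.167% of all genes (25) did. The largest differences were those of Krt18 (-0.35, SE 0.11, unadjusted p = 0.00680, edgeR adjusted p = 0.163), Cldn6 (-0.32, SE 0.15, adjusted p = 0.355), Krt8 (-0.32, SE 0.11, adjusted p = 0.216), and Cdh1 (0.26, SE 0.11, adjusted p = 0.317). DESeq2 called none of the 10 either, and 297 genes in all. Without the CPM filter Krt18 passed (edgeR adjusted p = 0.0256).

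Krt18 was lower with vitC at 4 of 4 time points, with log2 ratios of -0.59, -0.04, -0.27, and -0.52 at 4, 16, 24, and 32 hr. The ratio at 4 hr (95% counting interval -0.63 to -0.55) was as large as any later. Krt8 was lower at 3 of 4, with ratios of -0.46, 0.05, -0.52, and -0.33. Cdh1 was higher with vitC at 3 of 4 time points, with ratios of -0.13, 0.36, 0.45, and 0.38. For Cldn6 the ratio was -0.96 at 16 hr (95% counting interval -1.12 to -0.79), the largest single ratio of the 40, and between -0.24 and 0.02 at the other time points. These ratios rest on 1 library a side and have no replicate check.

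**Figure D3:**
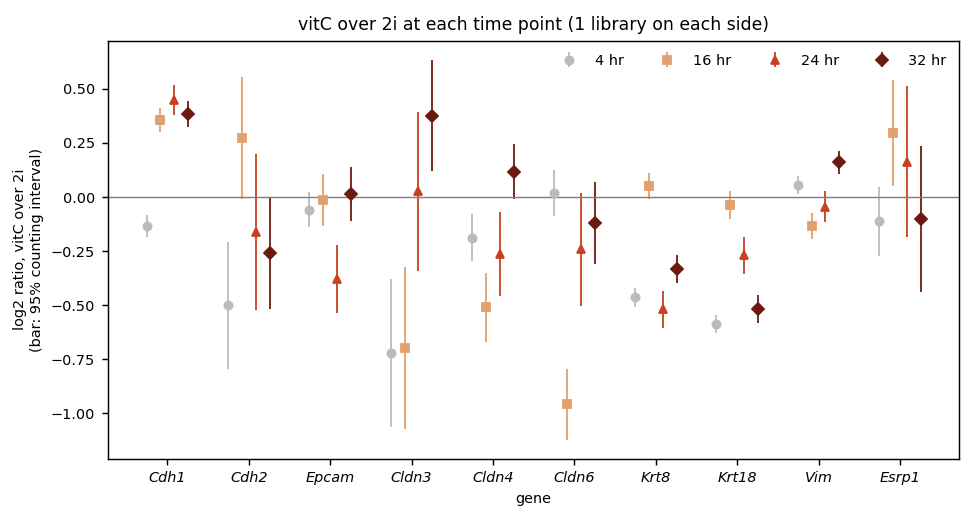
Log2 ratio of vitC over 2i (vertical axis) for each gene (horizontal axis) at 4, 16, 24, and 32 hr, with 95% counting intervals and 1 library on each side. Cdh1 lies above 0 from 16 hr on, Krt18 lies below 0 at every time point, and the lowest point is Cldn6 at 16 hr (-0.96).

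A linear change of the vitC effect with hours in 2i was called for none of the 10 genes, and for 0.0% of all genes by edgeR (0 of 14931, with 431 at an unadjusted p below 0.05 and 1 gene called by DESeq2). The fit had 2 residual degrees of freedom. Cldn3 had the largest slope, 0.04 on the log2 scale per hr (unadjusted p = 0.0223, edgeR adjusted p = 1.00), going from a ratio of -0.72 at 4 hr to 0.38 at 32 hr.

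Per length, the order of the median levels was Krt18 (266 RPKM), Krt8 (210.4), Vim (95.04), Cdh1 (92.7), Epcam (49.6), Cldn4 (42.5), Cldn6 (26.2), Cldn3 (13.1), Esrp1 (3.39), and Cdh2 (2.16). The ranges of neighbours over the 8 libraries did not overlap between Krt8 and Vim or between Cldn6 and Cldn3. The other neighbours overlapped, though Krt18 was above Krt8 and Cdh1 above Epcam in 8 of 8 libraries. Vim was above Cdh1 in 6 of 8, Cldn4 above Cldn6 in 5 of 8, and Esrp1 above Cdh2 in 6 of 8. The medians of Vim and Cdh1 lay side by side, and that of Cdh2 was the lowest of the set.

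**Figure D4:**
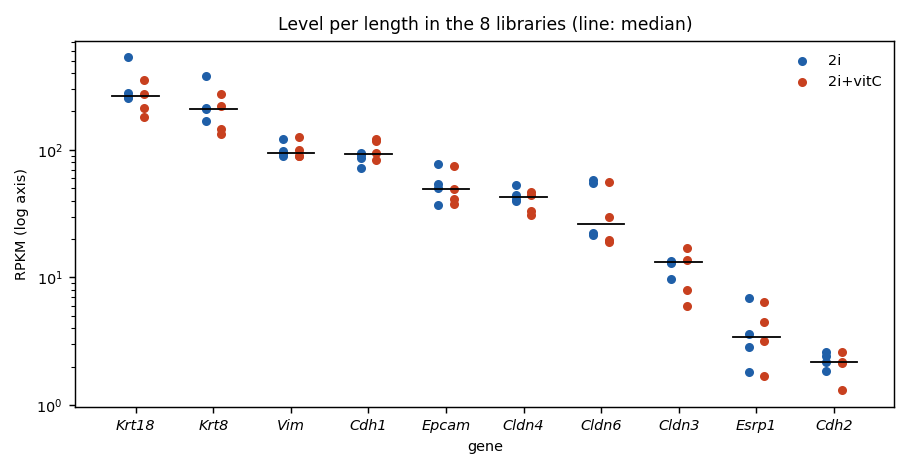
RPKM on a log axis (vertical) of each gene (horizontal axis, ordered by median) in the 8 libraries, with blue for 2i, red for vitC, and a line at the median. Medians span from 266 RPKM for Krt18 to 2.16 RPKM for Cdh2, and Vim (95.04) and Cdh1 (92.7) lie side by side.

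Other genes of the same structures, from lists drawn up for this report, did not move in 1 direction. Of 38 tested genes of epithelial junctions and polarity, 5 rose and 3 fell between 4 and 24 hr (21.1% called), with a median log2 change of 0.04 beside 0.01 over all genes. The share of all genes called was 20.5%, so the shares of this list and of the next lie near the background. The desmosomal cadherin Dsg2 rose (2.07, SE 0.21, edgeR adjusted p = 9.50e-05), while the desmosomal protein Perp (-1.46, SE 0.18, adjusted p = 0.000391) and the claudin Cldn7 (-1.09, SE 0.33, adjusted p = 0.0343) fell. Of 31 epithelial keratins, regulators, and surface proteins, 2 rose and 5 fell (22.6% called, median -0.30). They included the keratins Krt42 (-1.06, SE 0.25, edgeR adjusted p = 0.0105) and Krt19 (-0.93, SE 0.16, adjusted p = 0.00202), which fell like Krt8 and Krt18, and the epithelial sorting adaptor Ap1m2 (-1.16, SE 0.32, adjusted p = 0.0241). None of the 6 tested other classical cadherins passed, with a median log2 change of -0.54. Levels were low: the 12 cadherins of that list together summed to 14.4 to 22.7 CPM in 2i and 15.9 to 20.8 CPM with vitC.

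Of 12 transcription factors used as mesenchymal markers, 10 were tested, 3 rose, and 1 fell (40% called, beside 20.5% over all genes, median 0.66). Zeb2, a repressor of Cdh1, rose (1.07, SE 0.19, edgeR adjusted p = 0.00243), as did the E-protein Tcf4 (0.63, SE 0.16, adjusted p = 0.0158). The mesoderm factor T (Brachyury) fell (-1.13, SE 0.25, edgeR adjusted p = 0.00867), and Zeb1 was listed at 0 counts in all 8 libraries. Of 40 mesenchymal structural and surface genes, 9 rose and 10 fell (47.5% called, median 0.00). The shares of these lists thus lay above that over all genes, with calls in both directions. The fibrillar collagen gene Col1a1 rose (2.35, SE 0.27, edgeR adjusted p = 2.00e-04), whereas the actin-binding Tagln fell (-2.32, SE 0.19, adjusted p = 1.99e-05). In the 5 lists together, vitC changed no gene past the threshold, and 32 against 16 hr changed 1, a mesenchymal structural gene that rose.

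**Figure D5:**
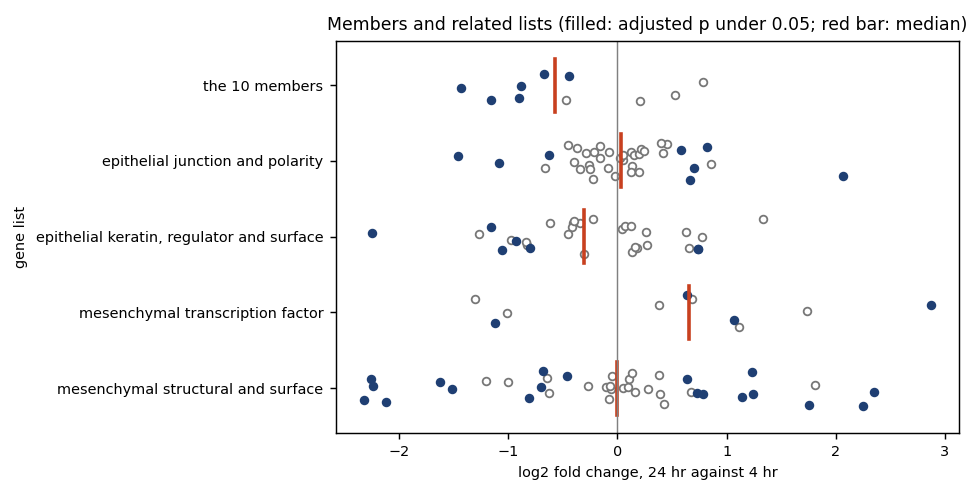
Log2 fold change at 24 against 4 hr (horizontal axis) of the tested genes in the set of 10 and in 4 related lists (vertical axis); each point is a gene, filled where the adjusted p was under 0.05, and the red bar is the median. The median of the 10 genes (-0.57) lies left of 0, while filled points of the junction and structural lists lie on both sides.

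Keratins, claudins, and Epcam are also expressed in trophoblast and endoderm, and Vim in fibroblasts, so markers of these cells were read beside the results. The 8 ESC markers summed to 1697, 1797, 1816, and 2002 CPM in 2i and to 1676, 1594, 1670, and 1631 CPM with vitC. All 8 were tested, and 2 rose and 1 fell between 4 and 24 hr. The 7 trophoblast markers summed to 37.1, 20.3, 20.1, and 19.2 CPM in 2i and to 28.9, 29.3, 23.0, and 30.8 CPM with vitC. Of the 6 tested, 2 fell between 4 and 24 hr, none rose, and 4 did not pass, with a median log2 difference of 0.31. The 7 primitive endoderm markers summed to between 9.94 and 26.4 CPM, with 1 gene higher and 1 lower of 5 tested. Fibroblast markers summed to 116, 262, 369.5, and 289 CPM in 2i and to 96.5, 416, 677, and 421 CPM with vitC, with 3 of 6 higher and none lower, while Vim fell. The 6 mesoderm markers summed to at most 19.6 CPM, and 1 (T) was tested. No marker of these lists was at 0 in every library. At 24 against 4 hr, 37.5% of the tested ESC, 33.3% of the trophoblast, 40% of the primitive endoderm, and 50% of the fibroblast markers were called. The share over all genes was 20.5%, and these lists are short. Col1a1 is in both the fibroblast and the mesenchymal structural list, and T in both the mesoderm and the mesenchymal factor list. The part of these cell types in the results was not tested.

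Across the 8 libraries, the log2 levels of Krt8 and Krt18 had a Pearson r of 0.973, Epcam and Krt8 of 0.940, and Epcam and Esrp1 of 0.917. Cldn3 and Esrp1 (-0.810) and Cdh2 and Vim (-0.900) ran opposite to each other. For Cdh1, r with the other 9 genes lay between -0.653 (Cldn4) and 0.219 (Cdh2). The points share libraries, time points, and depth, so these values are descriptions. Of 10458 protein-coding genes, the most similar pattern was that of Rrp12 for Krt8 (0.983), Prps1l3 for Krt18 (0.985), Wnt3 for Epcam (0.987), Cdkl2 for Esrp1 (0.987), and Gm4353 for Cldn6 (0.986). For Cdh1 it was Hipk2 (0.966), for Cdh2 Senp7 (0.973), for Cldn3 Ephb6 (0.977), for Cldn4 Puf60 (0.987), and for Vim Coro1c (0.989). Krt18 was the third gene in the order for Krt8.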

How the data were processed

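RNA-seq was read from 8 E14 ESC libraries, 1 for each treatment and time point. The authors depleted ribosomal RNA, made TruSeq libraries, sequenced single ends of 50 bases, and deposited raw counts per Ensembl gene without normalization. The submitters' processing notes name GSNAP, HTSeq, and the build NCBIM37/mm9; the annotation release and strand setting are not given in the sources used here. Symbols and exon lengths came from GENCODE M21, in which 32604 of 37263 identifiers were found, and no gene coordinates were taken from it. Labels give the inhibitors in mM and the study's methods in µM.

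Groups came from the labels. A gene was tested where 2 or more libraries held it at 1 CPM or above, with edgeR 4.0.16 in R 4.3.3 (quasi-likelihood, TMM), with time and treatment as additive terms, and p-values were adjusted by Benjamini-Hochberg over all 14931 genes at a threshold of 0.05. Change of the vitC effect with hours was fitted in a model with an added linear term. No replicate libraries were labelled. Each p-value therefore sets the tested change or difference against the residual error of its fit, which is not the spread between replicates. Levels of single libraries have exact Poisson intervals. Ratios of single libraries used counts with a small constant added, and their intervals are normal approximations of counting error on the log scale. Promoters came from a RefSeq table of GRCm38.p6. The members and lists were chosen with earlier results of these data known. All 10 members are named, as are the 3 genes of each list with the largest called change at 24 against 4 hr and a mean of at least 5 CPM, except 1 that is not reported here; for the likeness of patterns, genes of that mean level were ranked by Pearson correlation of log2 CPM (prior count 2). The script was tested on simulated data. Alternatives were RLE scaling, DESeq2 1.42.0, no filter or at least 5 CPM, no treatment term or time block, GC and length correction, removal of the Lars2 features or their share as a covariate, thinning to 4753528 counts, and leaving out libraries.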

Additional observations from a re-analysis of the deposited data

Results flagged for a closer look

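Cdh1 moved in opposite directions in the treatments between 4 and 24 hr, beyond counting error, which leaves out errors of library scaling. Its single-library log2 ratio was -0.070 in 2i (95% counting interval -0.12 to -0.018), a small difference, and 0.51 with vitC. Between 4 and 32 hr its ratios were -0.33 and 0.19. Epcam differed in this way between 16 and 24 hr, with 0.11 in 2i and -0.26 with vitC. Vim did so between 16 and 32 hr, with -0.11 in 2i and 0.18 with vitC. The difference between treatments was not tested for these intervals, each of which has 1 library at each end. The linear change of the vitC effect with hours missed the threshold for all 3 genes (edgeR adjusted p = 1.00).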

How the results depend on the processing

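Of the 6 members lower at 24 against 4 hr, 6 were called by DESeq2, with RLE scaling, thinning, GC and length correction, and the Lars2 features removed. With the Lars2 share as a covariate, 0 members and 0 genes were called at 24 against 4 hr, and 0 members and 73 genes at 16 against 4 hr. The share was higher at 16 and 24 hr than at 4 hr in both treatments, so the covariate fit can barely tell it from time. In that fit the log2 differences of Cdh1 (-0.25) and Cdh2 (-0.29) at 24 against 4 hr, of Cdh1 (-0.034) and Cldn6 (0.38) at 16 against 4 hr, and of Esrp1 for vitC (-0.013) changed sign, and vitC called 4 genes. Without the treatment term or time block, 1891 genes were called at 24 against 4 hr, 11 genes and 0 members at 32 against 16 hr, 1289 genes and 2 members at 16 against 4 hr, and 0 genes for vitC. For 32 against 16 hr, DESeq2 called 243 genes, no filter 589, and thinning 57 with 1 member, while at least 5 CPM left 1 member. Cdh2, near 0 there, changed sign with no filter (0.0017) and without the treatment term (0.00015). For vitC, DESeq2 called 297 genes, no filter 690 with 1 member, at least 5 CPM 13, GC and length correction 13, the Lars2 features removed 60, and thinning 147. For the change with hours, DESeq2 called 1 gene and no filter 5. The cause of these shifts was not tested.

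When 1 library (for vitC also both of a time point) was left out, the genes called ran from 752 to 3357 and the members from 3 to 7 at 24 against 4 hr; from 2 to 137 and from 0 to 2 at 32 against 16 hr; from 540 to 2062 and from 1 to 4 at 16 against 4 hr; and the genes from 0 to 417 for vitC and from 1 to 23 for the change with hours. Log2 differences that changed sign ran from -0.055 (without the vitC library of 4 hr) to 0.48 for Cdh1 at 24 against 4 hr, and from -0.82 to 0.024 (without the vitC library of 16 hr) for Cldn6 at 16 against 4 hr. At 32 against 16 hr they ran from -0.30 to 0.28 for Cdh2, from -0.017 to 0.42 for Cldn4, and from -0.063 to 0.13 for Vim. For vitC they ran from -0.040 to 0.061 for Vim and from -0.026 to 0.13 for Esrp1. Depth was least for Cdh2 and Cldn3. The libraries were paired by time point in the vitC test, through the time block; no replicate numbers were given to pair by.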
